A study of Mus musculus with 4 samples.

Results

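Thrombospondins are secreted, calcium-binding glycoproteins of the matrix that assemble into multimers and bind cell surface receptors, other matrix proteins and growth factors. The 4 thrombospondin genes analysed here were *Thbs1*, *Thbs2*, *Thbs3* and *Thbs4*, and the 5 receptor genes were *Cd47*, *Sirpa*, *Itgav*, *Itgb3* and *Lrp1*. These 9 members were taken by gene symbol from the 19946 genes that the arrays measured, and all 9 had a probe set (the group of array probes that reads 1 gene). Their RNA was measured in alveolar macrophages (AM), the resident phagocytes of the airspace, recovered by lavage from healthy, untreated mice. The groups were WT C57/Blk6 mice and *Trem-2*-/- mice, which lack the lipid-binding receptor TREM-2 and had been backcrossed 10 times to C57/Blk6. Both groups were 8 to 10 weeks old. Each group had 2 arrays, described by the submitters as biological duplicates, and each array held RNA of pooled mice. The number of mice in a pool was not given in the sources used here.

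Thrombospondin-1 and thrombospondin-2 form trimers and carry the thrombospondin type 1 repeats, whereas thrombospondin-3 and thrombospondin-4 form pentamers and lack those repeats. Thrombospondin-1 is stored in platelet granules, is made by activated macrophages, and can release TGF-β from its latent complex. It can also bridge apoptotic cells to phagocytes through the αvβ3 integrin and CD36. CD47 binds the C-terminal end of thrombospondin-1 and is also the ligand of SIRPα, the inhibitory receptor through which macrophages are held back from engulfing healthy cells. LRP1 is a large endocytic receptor that clears thrombospondins and, with calreticulin, takes part in the uptake of apoptotic cells.

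*Thbs1* was higher in *Trem-2*-/- AM, and no other member passed the test in either direction. The deposited values were log2 signals, on which a difference of 1 is a doubling. Tested with limma across all genes at an adjusted p threshold of 0.05, 1 of the 9 members was higher and 0 were lower. Of all genes, 0.431% were called higher and 0.135% lower. The count of lower members was also 0 at an unadjusted p threshold of 0.05, where 4.64% of all genes were higher and 6.9% lower, and by significance analysis of microarrays (SAM), the test named in the study's methods. By SAM at a false-discovery rate of 5%, *Thbs1* was again the 1 member called, where 0.867% of all genes were higher and 0.0953% lower. The median log2 difference over the 9 members was 0.03, and over all genes it was -0.02. The study itself singled out *Thbs1* on these arrays, so its call is not independent evidence. Apart from the arrays, the study reported higher *Thbs1* by RT-PCR in *Trem-2*-/- AM and in *Trem-2*-/- bone marrow derived macrophages.

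The targeted gene, *Trem2*, had log2 signals of 9.58 and 9.74 in the WT arrays and of 7.64 and 7.45 in the *Trem-2*-/- arrays, so that it fell by 2.11 on the log2 scale (limma adjusted p = 0.00090). Which exons its probe set covers was not given in the sources used here. Of the 18 AM markers measured, 16 were not called, and *Itgax*, which encodes CD11c, had log2 signals of 12.84 in both WT arrays and of 12.75 and 12.68 in the *Trem-2*-/- arrays. *Car4* and *Fabp1*, the other 2 markers, were higher by 0.90 and 0.74 on the log2 scale. Of those not called, *Siglecf* and *Krt79* differed by -0.21 and -0.35, and *Marco* and *Il18* by 0.18 and 0.46, without overlap. Over the list, 6 markers were higher and 9 lower without overlap, beside 17.4% and 25.4% of all genes. At an unadjusted limma p threshold of 0.05, 5 were higher and 2 lower, beside 4.64% and 6.9%. SAM called 3 higher, *Il18* among them. With 1 array left out in turn, *Car4* was called in 1 of 4 fits and *Fabp1* in 0. Over all genes, arrays of the same genotype correlated at 0.994 and 0.995, and arrays of different genotypes at 0.992 to 0.993, so no array stood apart.

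*Thbs1*, on chromosome 2, had log2 signals of 6.69 and 6.34 in the WT arrays and of 10.00 and 10.05 in the *Trem-2*-/- arrays. Both *Trem-2*-/- arrays lay far above both WT arrays, with a gap of 3.30 between the nearest pair. The mean was 6.52 ± 0.25 (SD, n = 2) in WT AM and 10.02 ± 0.04 (SD, n = 2) in *Trem-2*-/- AM. The log2 difference was 3.51 with a standard error of 0.12 and a 95% interval of 3.21 to 3.81 (limma adjusted p = 0.00036). This was an 11.4-fold higher signal, with an interval of 9.23-fold to 14.0-fold, and the 4 pairings of a WT with a *Trem-2*-/- array gave between 9.87-fold and 13.1-fold. Among the increases over all genes it ranked 2, after *Saa3*. The WT arrays differed from each other by 0.35 on the log2 scale and the *Trem-2*-/- arrays by 0.05, so that the spread lay mostly in the low group.

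**Figure D1:**
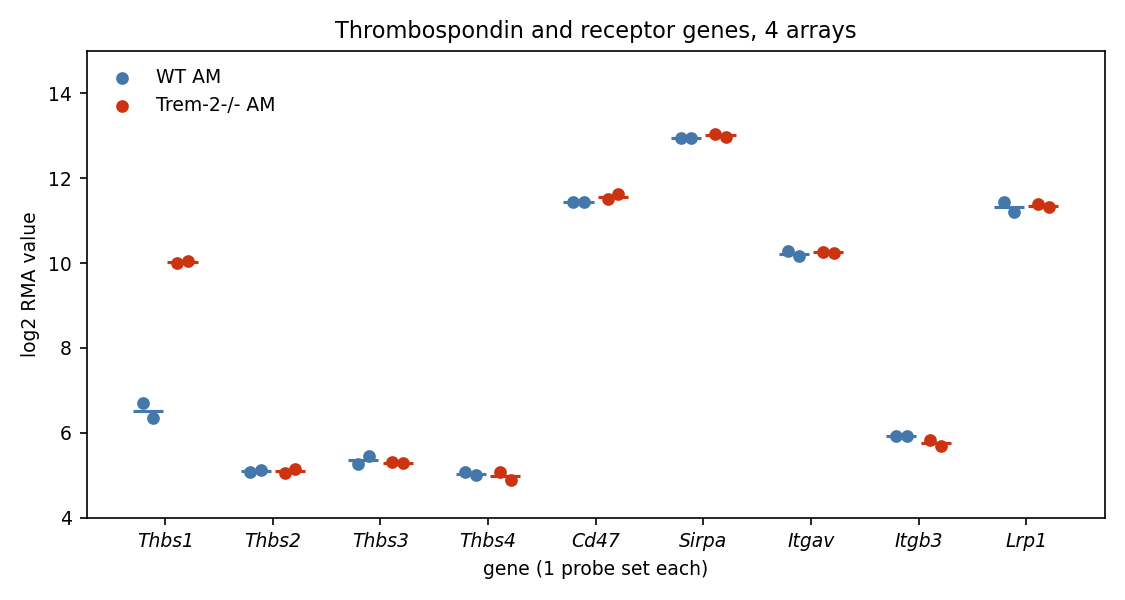
Log2 signal (y axis) of each of the 9 members on each array, with WT and *Trem-2*-/- arrays as separate points and lines at the group means (n = 2 per group). *Thbs1* separates by 3.30 or more on the log2 scale, while the points of the other 8 members lie close together.

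The other thrombospondins did not pass the test and were dim on every array. *Thbs2*, which lies on chromosome 17 as *Trem2* does, had log2 signals of 5.09 and 5.14 in WT AM and of 5.06 and 5.16 in *Trem-2*-/- AM. *Thbs3*, on chromosome 3, had 5.28 and 5.47 in WT AM and 5.32 and 5.28 in *Trem-2*-/- AM. *Thbs4*, on chromosome 13 and known from muscle and tendon, had 5.08 and 5.01 in WT AM and 5.09 and 4.89 in *Trem-2*-/- AM. For each of these 3 genes the arrays of the groups overlapped. The log2 difference was -0.0031 for *Thbs2* with a 95% interval of -0.19 to 0.18, -0.07 for *Thbs3* with an interval of -0.29 to 0.15, and -0.06 for *Thbs4* with an interval of -0.28 to 0.17. All 3 probe sets read below the median of all probe sets on all 4 arrays and above the lower quartile. No detection call was at hand, so a low signal here cannot be told apart from background.

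CD47 and SIRPα form a pair in which CD47 on a target cell engages SIRPα on the macrophage, and neither gene passed the test. *Cd47*, on chromosome 16, had log2 signals of 11.43 and 11.45 in WT AM and of 11.50 and 11.62 in *Trem-2*-/- AM. Its log2 difference was 0.12 with a 95% interval of -0.07 to 0.31 (limma adjusted p = 0.62). *Sirpa*, on chromosome 2, had 12.93 and 12.95 in WT AM and 13.03 and 12.98 in *Trem-2*-/- AM, a log2 difference of 0.07 with an interval of -0.11 to 0.24 (limma adjusted p = 0.78). For both genes the *Trem-2*-/- arrays lay above the WT arrays, by gaps of only 0.05 and 0.03. The interval of the fold reached 0.953 to 1.24 for *Cd47* and 0.927 to 1.18 for *Sirpa*. A second *Cd47* probe set, not used for the gene's value, had 11.19 and 11.31 in WT AM and 11.23 and 11.38 in *Trem-2*-/- AM, and its groups overlapped.

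The integrin subunits αv and β3 together form the vitronectin receptor, which binds thrombospondin-1 through an RGD sequence. *Itgav*, on chromosome 2, encodes αv and had log2 signals of 10.28 and 10.15 in WT AM and of 10.27 and 10.24 in *Trem-2*-/- AM. *Itgb3*, on chromosome 11, encodes β3 and had 5.93 in both WT arrays and 5.83 and 5.68 in the *Trem-2*-/- arrays. The αv values overlapped between the groups, and both β3 values were lower in *Trem-2*-/- AM, where they fell under the median of all probe sets. The log2 difference was 0.03 for *Itgav* with a 95% interval of -0.16 to 0.23 and -0.17 for *Itgb3* with an interval of -0.37 to 0.03 (limma adjusted p = 0.50). On the linear scale the *Itgb3* signal was 0.889 times that of WT AM, with an interval of 0.774 to 1.02.

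*Lrp1*, on chromosome 10, had log2 signals of 11.43 and 11.21 in WT AM and of 11.40 and 11.31 in *Trem-2*-/- AM. Both *Trem-2*-/- arrays lay between the WT arrays. The log2 difference was 0.04 with a 95% interval of -0.20 to 0.27, a fold of between 0.872 and 1.20 (limma adjusted p = 0.92).

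**Figure D2:**
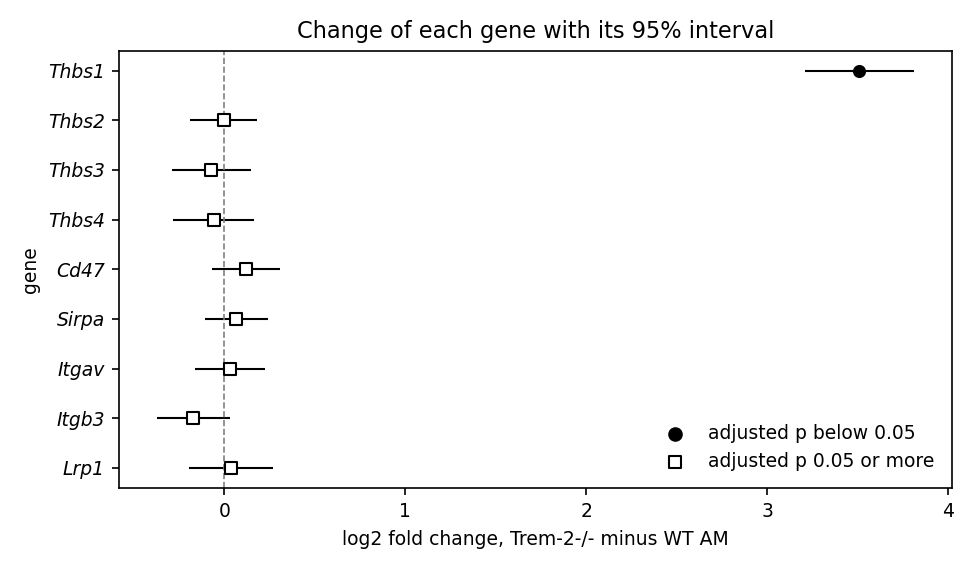
Log2 difference between *Trem-2*-/- and WT AM (x axis) for the 9 members, with 95% intervals from limma as bars (n = 2 arrays per group). The intervals of the 8 members other than *Thbs1* all lie between -0.37 and 0.31 and include 0, while that of *Thbs1* runs from 3.21 to 3.81.

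Over the 8 members other than *Thbs1*, the log2 differences ran from -0.17 to 0.12 and the limma adjusted p-values from 0.50 to 0.99. The groups did not overlap in 3 members that were higher, *Thbs1*, *Cd47* and *Sirpa*, and in 1 that was lower, *Itgb3*. Among all genes 17.4% were higher without overlap and 25.4% lower without overlap. For 2 arrays against 2 the smallest two-sided p of an exact permutation test is 0.33, so the calls rest on the spread that limma shares across genes. The smallest change called in any gene was 0.54 on the log2 scale, and the p-values measure only the spread between these arrays.

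The 5 genes whose 4 log2 signals, after centring each gene, lay at the smallest Euclidean distance from those of *Thbs1* were *Cxcl13*, *Prg4*, *Serpinb2*, *Saa3* and *Vsig4*. *Cxcl13*, a chemokine for B cells, was nearest at a distance of 0.605 and differed by 2.96 on the log2 scale. *Prg4*, which encodes the lubricant proteoglycan lubricin, lay at 0.657 with a log2 difference of 2.86. *Serpinb2*, a plasminogen activator inhibitor, lay at 0.715 with a log2 difference of 2.90. The acute phase gene *Saa3* lay at 1.27 with a log2 difference of 4.67, and the complement receptor gene *Vsig4* also at 1.27 with 2.24. With 2 groups of 2 arrays, a small distance to *Thbs1* amounts to a rise of similar size.

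The genes next to *Thbs1* on its chromosome showed no difference of its size. *Fam98b*, *Rasgrp1*, *Fsip1* and *Gpr176* had log2 differences of 0.04, 0.39, -0.06 and -0.15, and none of these 4 genes passed the test. The 4 genes nearest to *Thbs2* on chromosome 17, *Smoc2*, *4930474M22Rik*, *Wdr27* and *1600012H06Rik*, did not pass it either.

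Of the 142 distinct genes in 6 lists of thrombospondin biology, 3 were higher and 2 were lower in *Trem-2*-/- AM, which is 2.11% and 1.41% beside the 0.431% and 0.135% over all genes. The 5 genes were *Fyb*, *Ccn1* and *Cfp*, which were higher, and *Mfge8* and *Itgam*, which were lower. Each of these 5 lost its call when any 1 array was left out, with limma adjusted p-values of up to 0.28. Such a fit leaves 1 genotype with a single array, and its spread then comes from the other genotype. SAM called 9 higher and 1 lower, and 6 of them were not called by the main limma fit. Those 6, named for that reason after their values were seen, were *Itga4*, *Itga9*, *Ltbp1*, *Edil3*, *Itgb6* and *Tgfb2*. All 6 passed in an alternative limma fit with an intensity trend and robust variance.

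**Figure D3:**
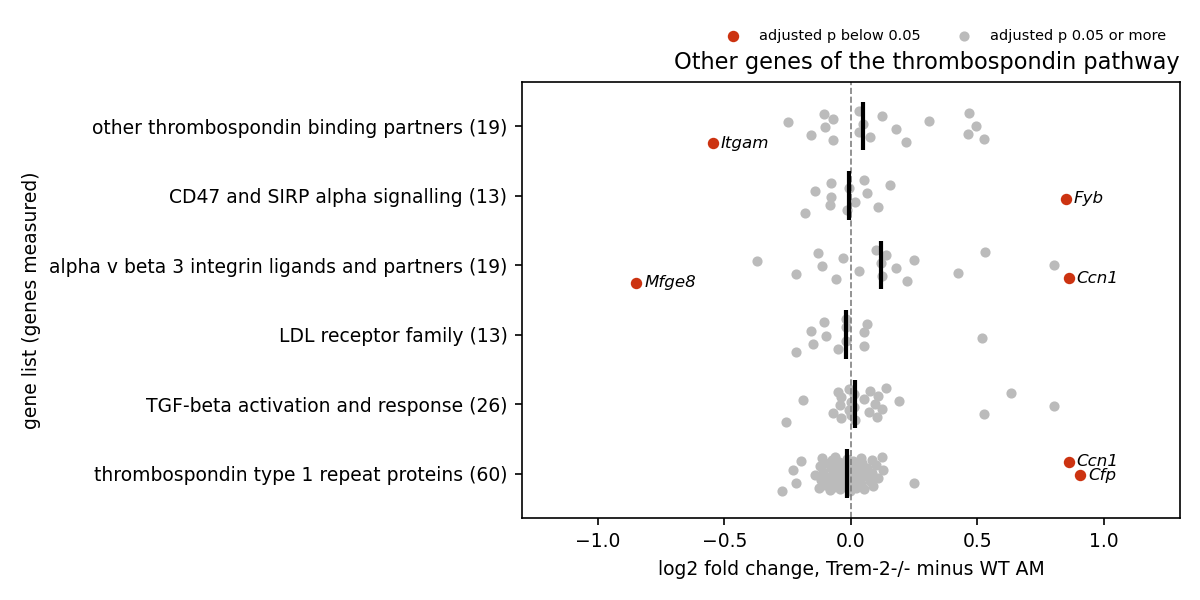
Log2 difference between *Trem-2*-/- and WT AM (x axis) for each measured gene of the 6 lists of thrombospondin biology (rows), 1 point per gene, with list medians as vertical bars and the genes called by limma in red and named (*Ccn1* is in 2 lists). The 5 named genes lie between -0.85 and 0.91, and the list medians lie between -0.02 and 0.12.

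The first list held 19 other binding partners of thrombospondins, all measured, of which 0 were higher and 1 was lower, with a median log2 difference of 0.05. At an unadjusted limma p threshold of 0.05, 6 were higher and 2 lower, beside the 4.64% and 6.9% over all genes. *Itgam*, the αM subunit of complement receptor 3, had log2 signals of 9.75 and 9.68 in WT AM and of 9.16 and 9.18 in *Trem-2*-/- AM, lower by 0.54 on the log2 scale (limma adjusted p = 0.048), and SAM did not call it. The class B scavenger receptor gene *Cd36* had 12.59 and 12.60 in WT AM and 12.34 and 12.36 in *Trem-2*-/- AM, a log2 difference of -0.25 that did not pass (limma adjusted p = 0.28). *Cd36* did pass in limma with an intensity trend and robust variance (adjusted p = 0.00073). *Calr*, which encodes calreticulin, differed by -0.10 and *Itgb1*, the β1 integrin subunit, by 0.03, and neither passed. *Itga4* and *Itga9*, whose products pair with β1, had log2 differences of 0.50 and 0.47, called by SAM but not by the main limma fit.

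In the list of CD47 and SIRPα signalling, 13 of 18 genes were measured, 1 was higher, 0 were lower, and the median log2 difference was -0.01. No gene of it was lower by SAM or at an unadjusted limma p threshold of 0.05 either, beside 0.0953% and 6.9% over all genes. *Fyb*, an adaptor protein that links receptor signals to integrin activation, had log2 signals of 7.95 and 7.89 in WT AM and of 8.65 and 8.89 in *Trem-2*-/- AM, a difference of 0.85 (limma adjusted p = 0.029). The phosphatases that SIRPα recruits did not pass. *Ptpn6* differed by -0.02 and *Ptpn11* by 0.06. *Skap2*, an adaptor that binds SIRPα, differed by -0.08, and *Qpctl*, whose enzyme modifies CD47 so that SIRPα can bind it, differed by -0.18.

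Among ligands and partners of the αvβ3 integrin, 19 of 22 genes were measured, 1 was higher, 1 was lower, and the median log2 difference was 0.12. SAM called 3 higher and 1 lower, beside 0.867% and 0.0953% over all genes. At an unadjusted limma p threshold of 0.05, 6 were higher and 3 lower, beside 4.64% and 6.9% over all genes. The 3 lower were *Mfge8*, *Vwf* and *Lgals3*. *Vwf* and *Lgals3* differed by -0.37 and -0.22, and the main limma fit did not call them. *Mfge8*, a secreted bridge between phosphatidylserine on dying cells and αv integrins, had log2 signals of 11.00 and 10.88 in WT AM and of 10.16 and 10.02 in *Trem-2*-/- AM. *Ccn1*, a matricellular integrin ligand, had 6.66 and 6.53 in WT AM and 7.40 and 7.52 in *Trem-2*-/- AM. Neither gene overlapped between the groups, and their log2 differences were -0.85 for *Mfge8* and 0.86 for *Ccn1* (limma adjusted p = 0.020 and 0.019). *Fn1*, which encodes fibronectin, differed by 0.42 (limma adjusted p = 0.17), *Vtn*, which encodes vitronectin, by 0.12, and *Itgb5*, an alternative partner of αv, by 0.18. None of these 3 passed, though *Fn1* and *Itgb5* did in limma with an intensity trend and robust variance (adjusted p = 0.00040 and 0.032). *Edil3*, a relative of *Mfge8*, and *Itgb6*, another partner of αv, differed by 0.53 and 0.80. SAM called both, and the main limma fit did not. *Edil3* read below the lower quartile of all probe sets on all 4 arrays, with 3.77 and 3.73 in WT AM and 4.24 and 4.32 in *Trem-2*-/- AM. *Itgb6* had 4.86 and 5.04 in WT AM, below the median of all probe sets. Without a detection call, such signals cannot be told apart from background.

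In the LDL receptor family, to which *Lrp1* belongs, 13 of 16 genes were measured and 0 were higher or lower by limma or by SAM, with a median log2 difference of -0.02. At an unadjusted limma p threshold of 0.05, 1 was higher and 1 lower, beside 4.64% and 6.9% over all genes. These were *Sorl1*, which differed by 0.52 (limma adjusted p = 0.15), and *Lrp8*, which differed by -0.22 (limma adjusted p = 0.41). *Sorl1* did pass in limma with an intensity trend and robust variance (adjusted p = 0.018). *Lrpap1*, the chaperone of LRP1, differed by -0.16, and the Wnt coreceptor genes *Lrp5* and *Lrp6* differed by 0.05 and -0.02.

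In TGF-β activation and response, 26 of 27 genes were measured and 0 were higher or lower by limma, with a median log2 difference of 0.02. At an unadjusted limma p threshold of 0.05, 3 were higher and 2 lower, beside 4.64% and 6.9% over all genes. SAM called 3 higher and 0 lower, beside 0.867% and 0.0953% over all genes. *Tgfb1* had a mean log2 signal of 11.98 ± 0.03 (SD, n = 2) in WT AM and of 11.99 ± 0.01 (SD, n = 2) in *Trem-2*-/- AM. Its receptor genes *Tgfbr1* and *Tgfbr2* differed by -0.04 and 0.01, and the feedback inhibitor gene *Smad7* by -0.07. The 3 genes called by SAM but not by the main limma fit were *Tgfb2*, *Ltbp1* and *Itgb6*. *Tgfb2* had a log2 difference of 0.63, and *Ltbp1*, which encodes a latent TGF-β binding protein, had 0.52. The product of *Itgb6* pairs with αv to activate latent TGF-β.

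Among proteins with thrombospondin type 1 repeats, 60 of 61 genes were measured, 2 were higher, 0 were lower, and the median log2 difference was -0.02. No gene of the list was lower by SAM, and 2 were lower at an unadjusted limma p threshold of 0.05, beside 6.9% over all genes. *Cfp*, which encodes properdin, the stabilizer of the alternative complement convertase, had log2 signals of 10.08 and 10.05 in WT AM and of 11.01 and 10.93 in *Trem-2*-/- AM. Its log2 difference was 0.91 (limma adjusted p = 0.0083), and *Ccn1* was the other gene called.

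Since platelets store thrombospondin-1, platelet and megakaryocyte markers were set beside *Thbs1*. Of 22 markers 17 were measured, 2 were higher, 0 were lower, and the median log2 difference was -0.07. *Pf4*, a chemokine of platelet granules that some macrophages also express, had log2 signals of 5.30 and 5.42 in WT AM and of 7.19 and 7.49 in *Trem-2*-/- AM, a difference of 1.98 (limma adjusted p = 0.0020). *F13a1*, coagulation factor XIII A, which monocytes also make, differed by 0.67 (limma adjusted p = 0.037), and it was not called when any 1 array was left out. The other 15 markers were not called by limma. Among them the platelet surface and skeleton genes *Gp9*, *Itga2b*, *Gp5*, *Clec1b* and *Tubb1* had log2 differences of -0.33, -0.13, -0.08, -0.18 and -0.13, and *Vwf* had -0.37. The granule genes *Ppbp* and *Mmrn1* had 0.17 and 0.13, the ADP receptor gene *P2ry12* had 0.25 and *Gng11* had 0.24. Of these, *Ppbp*, *Mmrn1* and *Gng11* read below the lower quartile of all probe sets on all 4 arrays. Without a detection call, such signals cannot be told apart from background. *Treml1*, a receptor of platelet granules whose gene lies in the same cluster as *Trem2* on chromosome 17, differed by 0.60. SAM called it, and the main limma fit did not. Over the list, 7 markers were higher and 7 lower without overlap, beside 17.4% and 25.4% of all genes. At an unadjusted limma p threshold of 0.05 there were 4 higher and 2 lower, beside 4.64% and 6.9% of all genes. The summed linear signal of the list was 2231 to 2260 in WT AM and 2146 to 2248 in *Trem-2*-/- AM, of which *Clec1b* and *Vwf* gave 56.3% to 66.7%. Without these 2 genes, a sum taken after the values were seen, it was 743 to 791 in WT AM and 938 to 977 in *Trem-2*-/- AM. The part of platelet RNA in the *Thbs1* result was not tested.

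**Figure D4:**
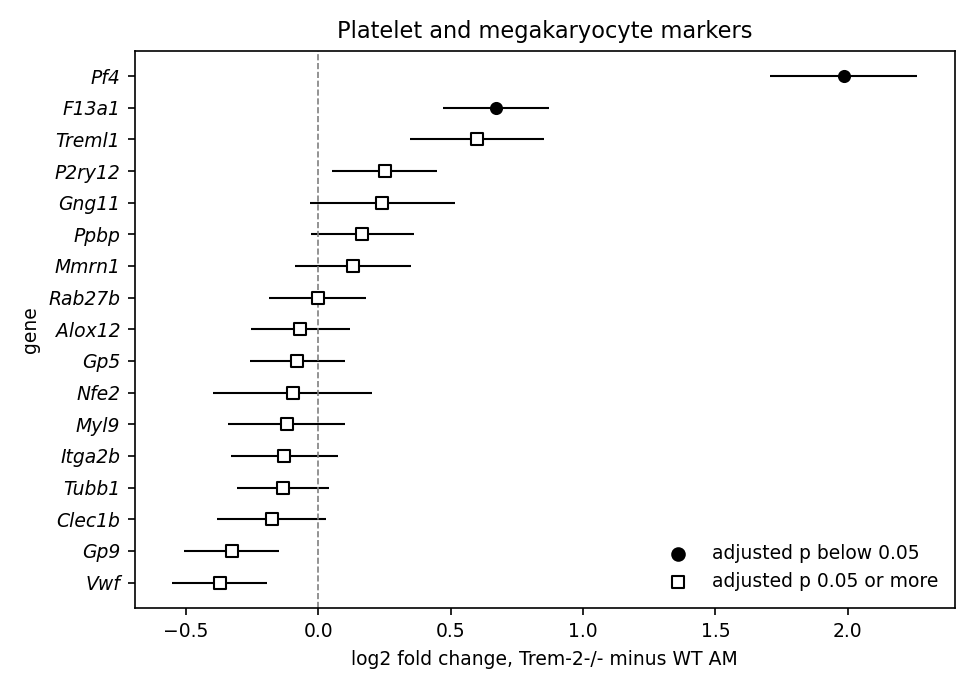
Log2 difference between *Trem-2*-/- and WT AM (x axis) for the 17 measured platelet and megakaryocyte markers (y axis), with 95% intervals from limma as bars (n = 2 arrays per group) and filled circles for adjusted p below 0.05. *Pf4* lies apart at 1.98, followed by *F13a1* at 0.67, while *Gp9* and *Itga2b* lie at -0.33 and -0.13.

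Some markers of other macrophages were called higher, as *Thbs1* was, and others were not called. Of 19 measured markers of monocytes and interstitial macrophages 11 were higher and 0 were lower, beside 0.431% and 0.135% of all genes. The median log2 difference of the list was 0.79, and the summed linear signal was 12335 to 12578 in WT AM and 19627 to 20051 in *Trem-2*-/- AM. The study itself singled out *C1qa*, *C1qb* and *C1qc* of this list on these arrays, so their calls are not independent evidence. Apart from the arrays, it reported higher *C1qb* by RT-PCR in *Trem-2*-/- AM. *Pf4* is in this list and in the platelet list. *C1qb*, *C1qc* and *Apoe* differed by 1.80, 1.81 and 1.67, and the chemokine receptor genes *Ccr2* and *Cx3cr1* by 0.81 and 0.67. With 1 array left out in turn, 5 of the 11 were called each time, 2 in some fits, and 4, *Ccr2*, *Cx3cr1*, *Cd74* and *Cd14*, in none. The interstitial macrophage markers *Lyve1*, *Folr2*, *Cd163* and *Maf* were not called, with log2 differences of -0.09, -0.07, 0.10 and -0.01. *Csf1r* and *Cd74* gave 54.2% to 66.0% of the summed signal, and without them it was 4191 to 4364 in WT AM and 8934 to 9177 in *Trem-2*-/- AM. Among 12 measured markers of pleural and peritoneal macrophages, a list that holds *Saa3*, *Cxcl13* and *Prg4* and was written with earlier results known, 7 were higher and 0 were lower, with a median log2 difference of 0.92 and a summed signal of 4101 to 4104 in WT AM and 8469 to 8703 in *Trem-2*-/- AM. Of these 7, 5 were called with any 1 array left out, *Timd4* in some fits and *F5* in none. Without *F10* and *Adgre4*, the brightest genes of the list, the sum was 496 in both WT arrays and 2268 to 2357 in *Trem-2*-/- AM. That sum still held *Saa3* and *Cxcl13*, which ranked 1 and 3 among the increases over all genes. Their log2 signals in *Trem-2*-/- AM were 9.77 and 9.67 for *Saa3* and 9.53 and 9.77 for *Cxcl13*. The sum is therefore not independent of these genes. *Garnl3* of the same list had a log2 difference of -0.29 and was not called. *Gata6*, the defining transcription factor of those cells, had log2 signals of 5.06 and 5.35 in WT AM and of 5.66 and 5.81 in *Trem-2*-/- AM and did not pass (limma adjusted p = 0.17). *Gata6* did pass in limma with an intensity trend and robust variance (adjusted p = 0.031). In RNA of whole lavage macrophages, more cells of a type and more RNA per cell cannot be told apart, and the part of these markers in the *Thbs1* result was not tested.

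Of the remaining lists, only that of lung epithelium held genes called by limma. Of its 15 markers 2 were higher and 0 lower, beside 0.431% and 0.135% of all genes. *Cldn18* was higher by 1.23 and the club cell gene *Scgb1a1* by 0.91 on the log2 scale. The summed signal of the list was 1442 to 1523 in WT AM and 1808 to 1827 in *Trem-2*-/- AM. *Cldn18* was called in 3 of the 4 fits with 1 array left out and *Scgb1a1* in 0, with adjusted p-values of 0.054 to 0.12. SAM called 4 of the list higher and 0 lower, beside 0.867% and 0.0953% of all genes. They included the keratin genes *Krt8* and *Krt18*, with log2 differences of 0.83 and 0.95. At an unadjusted limma p threshold of 0.05 there were 8 higher and 1 lower, beside 4.64% and 6.9% of all genes. Without overlap, 8 were higher and 5 lower, beside 17.4% and 25.4% of all genes. *Cdh1*, the brightest gene of the list, and *Epcam* differed by -0.45 and -0.09, and the main limma fit called neither. With an intensity trend and robust variance limma called 5 higher and 1 lower, *Cdh1*. None of the 14 fibroblast and smooth muscle markers, the 10 endothelial markers, the 13 neutrophil markers and the 11 lymphocyte markers was called by limma. At an unadjusted limma p threshold of 0.05 there were 0, 2, 4 and 0 of them. Over all genes 4.64% were higher and 6.9% lower at that threshold. The 2 endothelial markers were lower. The 4 neutrophil markers, *Csf3r*, *Ltf*, *Mmp9* and *Mmp8*, were higher, with log2 differences of 0.64, 0.35, 0.32 and 0.21. The neutrophil markers *Ly6g*, *S100a8* and *S100a9* differed by 0.02, 0.02 and 0.09 and *Cxcr2* by -0.28. Each of these overlapped between the groups. Of the markers in these lists SAM called 1, the neutrophil list's *Csf3r*. The summed signal of the fibroblast and smooth muscle markers, cells that can secrete thrombospondins, was 859 to 877 in WT AM and 814 to 844 in *Trem-2*-/- AM. It was 1012 to 1026 and 830 to 870 for the endothelial markers, of which *Vwf* and *Eng* gave 67.4% to 70.8%, and 299 to 301 and 270 to 282 without those 2 genes. For the neutrophil markers it was 966 to 988 and 1103 to 1131, and without the 2 brightest, *Mmp8* and *Csf3r*, 601 to 605 and 598 to 649.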

How the data were processed

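Alveolar macrophage RNA of pooled mice was hybridized to Affymetrix mouse Gene 1.0 ST arrays, 2 WT and 2 *Trem-2*-/-. The authors normalized the arrays by RMA (background correction, equalized array distributions, probe summary) and deposited log2 values. RMA, without a version, and build mm9 are named in the submitters' processing notes. The raw scans were not used here, so no other background correction was tried, and the number of arrays limits the precision.

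Groups came from the sample labels. Of 35557 probe sets, 21797 had 1 symbol in the platform annotation, 1613 had several and the rest were unnamed. Of those with 1 symbol, 21698 matched RefSeq by gene identifier. Each gene was read from its probe set with the highest mean, giving 19946 genes. The genotypes were compared with limma 3.58.1 in R 4.3.3, with Benjamini-Hochberg adjustment over all genes and a threshold of 0.05. The code was tested on simulated data. The members and lists were chosen with earlier results of these data known. Named were the members, *Trem2*, called genes of each pathway list (up to 6) with up to 4 best known partners, called (up to 6) and defining marker genes, and the 5 genes nearest in pattern to *Thbs1*. Some other genes of the lists were named after their values were seen. The alternatives were SAM, a replicate block, the methods' t-test, an intensity trend, quantile normalization, median centring, a filter on mean log2 of at least 6, averaging over the probe sets of each gene, testing every probe set, and leaving out each array.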

Additional observations from a re-analysis of the deposited data

How the results depend on the processing

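The *Thbs1* difference was positive under every alternative tried, at 3.51 to 3.52 on the log2 scale with all arrays and at 3.33 to 3.68 with 1 array left out (limma adjusted p = 0.00072 to 0.0047). It missed the threshold in 1 setting, a t-test after Benjamini-Hochberg adjustment (3.51, adjusted p = 0.41). In that setting 0 members, 0 higher and 0 lower genes, 0 pathway genes and 0 marker genes were called. The study's methods name the t-test for group comparisons in general and SAM for the arrays. With all probe sets tested, the limma adjusted p of *Thbs1* was 0.029. By the unadjusted t-test there were 782 higher and 1052 lower genes, 19 pathway genes and 45 marker genes. limma called 86 higher and 27 lower genes, 5 pathway genes and 23 marker genes, against 173 higher genes and 10 pathway genes by SAM, 379, 290, 18 and 38 with an intensity trend and robust variance, and 21, 2, 0 and 7 with all probe sets tested. With genes of mean log2 of at least 6 there were 207 higher, 150 lower and 11 pathway genes. Without 1 array there were 22 to 43 higher and 4 to 7 lower genes, 0 pathway genes and 10 to 14 marker genes. These fits leave 1 genotype with a single array, which is assumed to vary like the other genotype's arrays. The replicate numbers only name the arrays. Same-numbered arrays deviated with a correlation of -0.05, and a replicate block gave *Thbs1* 3.51 (adjusted p = 8.5e-05), 98 higher and 31 lower genes, and no other member called. Signs of members that did not pass changed in some settings. *Thbs2* was 0.036 after quantile normalization and 0.013 after median centring, and leaving out 1 array gave -0.052 to 0.046 for *Thbs2*, -0.17 to 0.024 for *Thbs3*, -0.16 to 0.042 for *Thbs4*, -0.031 to 0.10 for *Itgav* and -0.071 to 0.14 for *Lrp1*. Depth is not defined for arrays, and dim probe sets such as *Thbs2* to *Thbs4* carry no detection call.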
